A study of Mus musculus with 10 samples.

Results

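Transcripts of 10 iron and metal transport genes were followed in endothelial cells sorted from mouse brain. The genes were taken by symbol from the deposited expression table, where all 10 were found among 26264 genes, and all 10 also passed the filter on low values that left 12751 genes for testing. They are the importers Tfrc, Slc11a2, Slc39a8 and Slc39a14, the exporters Slc40a1 and Slc30a1, the ferritin genes Fth1 and Ftl1, and the iron regulators Ireb2 and Aco1. Mice of strain C57BL6 ate control diet or a diet with PLX5622 at 1200 ppm for 1 month. PLX5622 inhibits CSF1R, the receptor that microglia need to survive, and the series addresses whether brain vessels depend on microglia. There were 5 mice on each diet, 3 males and 2 females, each giving 1 library of polyadenylated RNA. The labels state no age for the mice. Endothelial cells were taken by a flow sort for CD31, which they carry on their surface, out of brain freed of meninges, cerebellum and olfactory bulbs. PLX5622 was given in the diet, so all tissues of the mouse were exposed, not the brain alone.

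Brain endothelium is the wall that iron and other metals must cross to reach the brain. Transferrin-bound iron is taken up by the transferrin receptor, iron is stored in ferritin, and ferroportin, the product of Slc40a1, is the known cellular iron exporter. Cells adjust this traffic mainly after transcription. The iron regulatory proteins, products of Aco1 and Ireb2, bind hairpins called iron-responsive elements when iron is scarce. A bound element in the 5′ untranslated region holds back translation, and bound elements in the 3′ untranslated region keep the transcript from decay. Transcript levels, the only quantity measured here, do not show how much of each transcript was translated.

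The elements are shown because they divide the genes by how iron acts on them. GENCODE M21 transcripts (build GRCm38) were searched in untranslated regions for a C, a stem strand of 5 bases, the loop CAGTGN with a last base other than G, and 5 bases that pair with the first strand. On the transcript strand, 5′ to 3′, with the unpaired C and the loop in capitals, the members held these elements of 29 bases:
Fth1, chr19:9982732-9982760, plus strand, 5′ untranslated region: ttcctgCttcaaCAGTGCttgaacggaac
Ftl1, chr7:45459779-45459807, minus strand, 5′ untranslated region: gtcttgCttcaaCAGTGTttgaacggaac
Slc40a1, chr1:45925465-45925493, minus strand, 5′ untranslated region: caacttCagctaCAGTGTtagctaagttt
Tfrc, chr16:32631219-32631247, plus strand, 3′ untranslated region: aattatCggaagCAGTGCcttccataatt
Tfrc, chr16:32631598-32631626, plus strand, 3′ untranslated region: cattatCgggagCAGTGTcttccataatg
Tfrc, chr16:32631663-32631691, plus strand, 3′ untranslated region: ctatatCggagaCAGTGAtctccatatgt
Tfrc, chr16:32631710-32631738, plus strand, 3′ untranslated region: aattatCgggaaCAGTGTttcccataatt

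The elements of Fth1 and Ftl1 shared 26 of 29 bases, while those of Fth1 and Slc40a1 shared 13. The 4 Tfrc elements shared 18 to 25 of 29 bases with each other. Such a match was found in the 5′ untranslated region of 0.11% of 20899 coding genes and in the 3′ untranslated region of 0.476% of 21022. The other 6 members had no match to these letters. Slc11a2 is among them, although a variant element with an extra unpaired base is known for a form of that transcript, and its form was not resolved by the gene totals used here. Not every annotated coding transcript held an element: 1 of 4 did for Slc40a1, 1 of 3 for Tfrc, 1 of 2 for Ftl1 and 4 of 5 for Fth1.

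In control mice the 10 genes spanned a range from the most abundant transcripts of these cells to some of the least. Levels are in TPM (a unit that corrects reads for the length of the gene and brings every library to one common sum), as the authors deposited them. Ftl1, the ferritin light chain, stood at 2910 ± 236 TPM (SD, n = 5), at place 25 of the 12751 tested genes. Tfrc, the transferrin receptor, at 815 ± 112 TPM, and Fth1, the ferritin heavy chain that oxidises iron for storage, at 809 ± 46.9 TPM, had overlapping libraries and lay above 98.7% of tested genes each. The exporters followed, with Slc40a1 at 333 ± 28.9 TPM and the zinc exporter Slc30a1 at 326 ± 39.7 TPM, again overlapping. Slc39a8, which imports zinc, manganese and iron, was at 165 ± 10.3 TPM and overlapped neither neighbour in this order.

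The regulators were much lower in level. Aco1, whose product is the cytosolic aconitase when it carries an iron-sulfur cluster and an iron regulatory protein when it does not, stood at 31.5 ± 1.496 TPM. Ireb2, which encodes the other iron regulatory protein, stood at 30.9 ± 3.42 TPM and overlapped it. Slc11a2, the divalent metal transporter DMT1 that moves iron out of endosomes, was at 13.2 ± 0.440 TPM. Slc39a14, a manganese, zinc and iron importer, was at 1.09 ± 0.210 TPM, with 32 to 125 reads per library, and only 1.6% of tested genes lay below it. Slc39a8 was thus the main one of these 2 related importers in the sorted cells. The deepest members, Tfrc and Ftl1, rested on at least 26684 reads in every library, so counting error was small for them and large for Slc39a14.

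**Figure D1:**
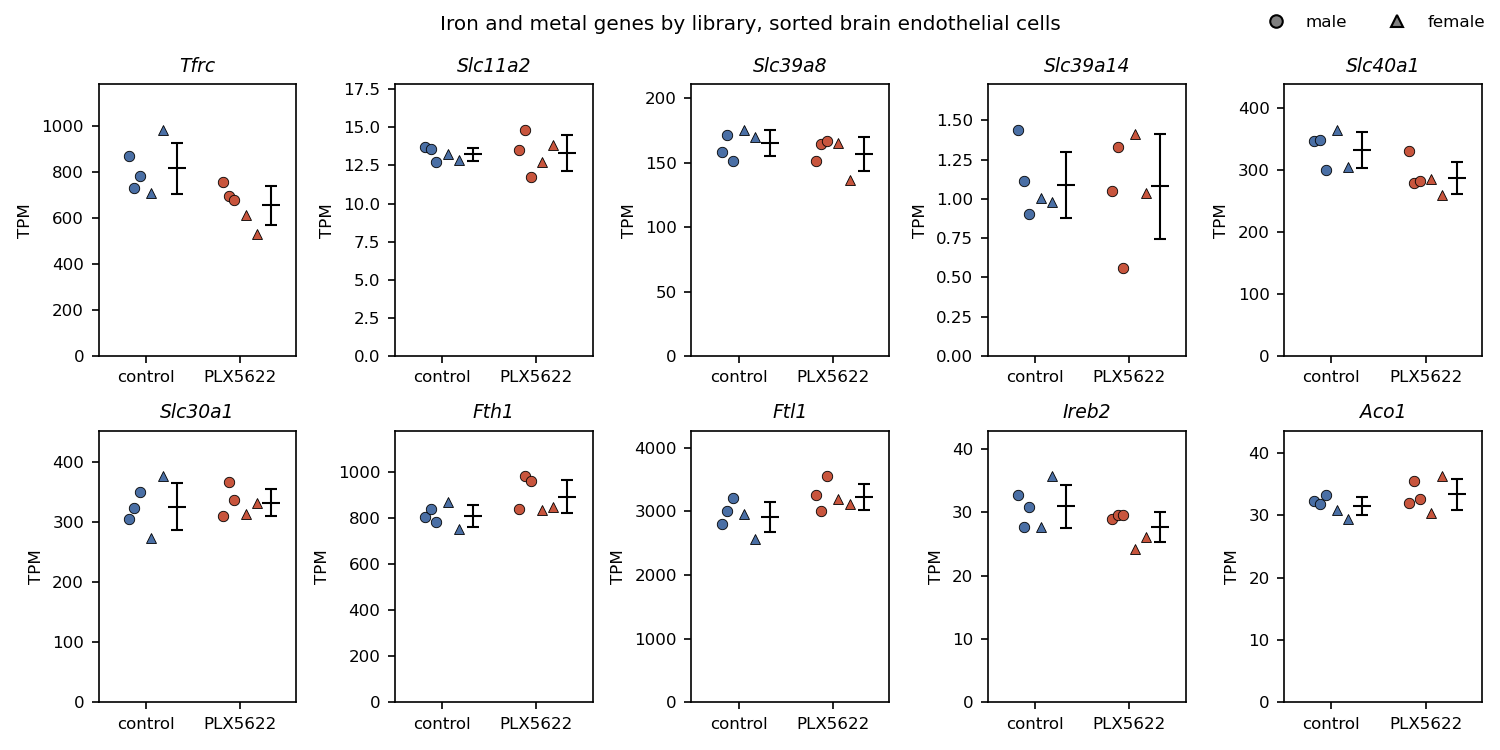
Level in TPM (vertical axis, from 0) of each gene in every library, by diet, with circles for male and triangles for female mice and bars for the mean and SD of 5 libraries per diet. The diets overlap in all 10 panels, and Tfrc shows the largest relative difference of means, at 709 to 983 TPM in control mice and 530 to 756 TPM under PLX5622.

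One library stood apart from its group before any of these genes was compared. In control female 1 the microglial markers Cx3cr1 (listed at 0), Csf1r (0.0689 TPM), Tmem119 (0.0838 TPM) and C1qa (0.164 TPM) were far below the other 4 control libraries and near the PLX5622 libraries. Without this library the log2 fold change of TPM + 1, PLX5622 against control diet, was -0.35 for Tfrc, -0.16 for Slc40a1, 0.01 for Slc11a2, -0.05 for Slc39a8, -0.04 for Slc39a14 and -0.03 for Slc30a1. It was 0.18 for Fth1, 0.17 for Ftl1, -0.18 for Ireb2 and 0.08 for Aco1, and no member was called (limma adjusted p from 0.448 to 0.99). Slc30a1 was the only member whose sign differed from the fit with all 10 libraries, which the following values use.

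No iron or metal transport gene differed between the diets at a limma adjusted p under 0.05. The test was limma on log2(TPM + 1) with sex and diet in the model and Benjamini-Hochberg adjustment over all tested genes, and it called 17 genes, or 0.133% of 12751. Log2 fold changes are given for PLX5622 against control diet on this scale. Among the 10 genes, 5 lay above 0 and 5 below, and their median log2 fold change was -0.0048, against -0.02 over all tested genes. At an unadjusted limma p under 0.05 stood 2 of the 10, Tfrc and Slc40a1, both lower, where 8.31% of all tested genes stood in either direction with 5.18% on the lower and 3.13% on the higher side. The 5 libraries of each diet overlapped for all 10 genes, and failed to overlap for 1.8% of tested genes. The authors' deposited DESeq2 table, which called 116 of 19474 genes (0.596%), called none of the 10 either, with 4 at an unadjusted p under 0.05 where 6.33% of its genes stood. Voom on reads recovered from the deposited values called 0 of the 10 and 21 genes (0.165%), with 3 of the 10 at an unadjusted p under 0.05 against 7.82% of all.

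Of the importers, Tfrc had the largest difference in the set. Its level was 867, 731 and 783 TPM in control males, 709 and 983 TPM in control females, 756, 695 and 676 TPM in PLX5622 males, and 611 and 530 TPM in PLX5622 females. Control female 2 was the highest library and PLX5622 female 2 the lowest, and the diets overlapped, since control female 1 and control male 2 lay under PLX5622 male 1. The log2 fold change was -0.32 ± 0.10 (SE), a change of -19.7% with a 95% confidence interval of -31.5% to -6.0%. The unadjusted limma p was 0.0104 and the limma adjusted p was 0.406. As large a change in either direction was seen in 5.2% of tested genes. Without control female 2 the log2 fold change of Tfrc went to -0.21, the nearest to 0 of the 10 fits that left out 1 library. In those fits the unadjusted limma p of Tfrc ran from 0.00554 to 0.0327 and the limma adjusted p from 0.353 to 0.7. The authors' deposited table gave Tfrc a DESeq2 log2 fold change of -0.30 and an adjusted p of 0.192.

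The other importers lay closer to 0. Slc11a2, which passes iron from the endosome that Tfrc fills into the cytosol, ranged from 12.7 to 13.7 TPM in control mice and from 11.7 to 14.8 TPM under PLX5622, with a log2 fold change of 0.0070 and a 95% confidence interval of -0.17 to 0.18. Slc39a8 ranged from 151 to 176 TPM and from 136 to 167 TPM, with a log2 fold change of -0.08 (-0.23 to 0.07). Slc39a14 ranged from 0.903 to 1.44 TPM and from 0.562 to 1.41 TPM, and its interval of -0.39 to 0.36 was the widest of the 10 genes. For Slc11a2 and Slc39a8 these intervals leave out a change of 20% or more. For Slc39a14 they do not.

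Of the exporters, Slc40a1 was lower on average and Slc30a1 was not. Slc40a1 stood at 347, 349 and 300.3 TPM in control males and at 365 and 305 TPM in control females. Under PLX5622 it stood at 330.4, 279 and 283 TPM in males and at 286 and 259 TPM in females. Only PLX5622 male 1 reached into the control range. The log2 fold change was -0.21 ± 0.08 (SE), a change of -13.7% with a 95% confidence interval of -23.1% to -3.2%, and the limma adjusted p was 0.437. It was -0.26 to -0.16 in the fits that left out 1 library, nearest to 0 without control female 1. Slc30a1, which moves zinc out of the cell, ranged from 273 to 376 TPM in control mice and from 311 to 367 TPM under PLX5622, with a log2 fold change of 0.03 (95% confidence interval -0.15 to 0.22).

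Both ferritin genes were somewhat higher on average, without passing the test. Fth1 stood at 804, 841, 782, 869 and 751 TPM in control mice (males first) and at 837, 981, 959.9, 836 and 848 TPM under PLX5622. The upper values were PLX5622 males 2 and 3, and the other 3 PLX5622 libraries lay within the control range. Its log2 fold change was 0.14 ± 0.07 (SE), with a 95% confidence interval of -0.0041 to 0.28. Ftl1 stood at 2806, 3003, 3206, 2963 and 2573 TPM in control mice and at 3254, 3006, 3552, 3187 and 3112 TPM under PLX5622, so the libraries overlapped and PLX5622 male 3 was the highest. The log2 fold change of Ftl1 was 0.15 ± 0.07 (SE), with a 95% confidence interval of -0.0082 to 0.31. The limma adjusted p was 0.616 for Fth1 and 0.625 for Ftl1. As large a change as that of Ftl1 was seen in 23.3% of tested genes and as large as that of Fth1 in 26.0%. Both genes have processed copies elsewhere in the genome, and the labels do not state how reads were shared among copies, so their levels carry that uncertainty.

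The regulators went opposite ways on average, with libraries that overlapped between the diets, and neither was called. Ireb2 ranged from 27.6 to 35.6 TPM in control mice and from 24.1 to 29.6 TPM under PLX5622, with a log2 fold change of -0.15 (95% confidence interval -0.34 to 0.03, limma adjusted p = 0.71). It went to -0.07 without control female 2, the library that was highest for both Ireb2 and Tfrc. Aco1 ranged from 29.3 to 33.3 TPM and from 30.3 to 36.2 TPM, with a log2 fold change of 0.08 (-0.07 to 0.22). Neither regulator is among the transcripts that carried an element in this search.

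**Figure D2:**
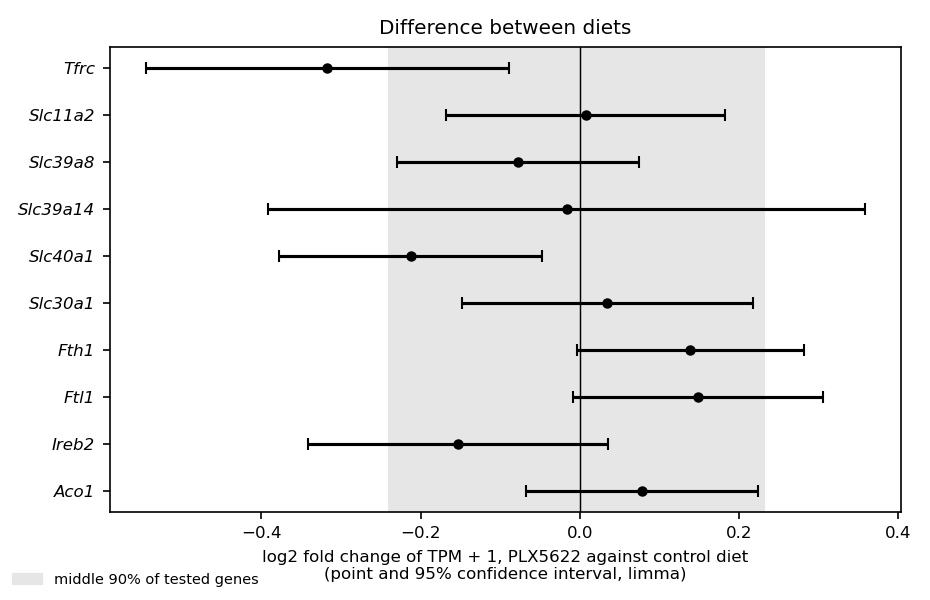
Log2 fold change of TPM + 1 on PLX5622 against control diet (horizontal axis) for each gene, with its 95% confidence interval from limma, and grey shading for the middle 90% of 12751 tested genes. Tfrc, at -0.32, is the only gene whose point lies outside the shading, and the intervals of Tfrc and Slc40a1 exclude 0 before adjustment.

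The genes with an element are set side by side here. Tfrc, with elements in the 3′ untranslated region, lay at -0.32, and of the genes with an element in the 5′ untranslated region Fth1 and Ftl1 lay at 0.14 and 0.15 but Slc40a1 at -0.21. None passed the test, so these are positions of uncalled genes. The level of Tfrc over that of Fth1, both per length, was 1.02 ± 0.195 in control mice and 0.734 ± 0.103 under PLX5622 (SD, n = 5 each). The libraries overlapped, from 0.816 to 1.31 in control mice and from 0.625 to 0.904 under PLX5622. Light over heavy ferritin chain, Ftl1 over Fth1, was 3.60 ± 0.287 and 3.63 ± 0.327, and spanned 3.06 in PLX5622 male 2 to 4.099 in control male 3. Tfrc over Slc40a1 was 2.47 ± 0.501 in control mice and 2.27 ± 0.182 under PLX5622. Aco1 over Ireb2 was 1.03 ± 0.131 and 1.21 ± 0.119, with only PLX5622 males 1 and 3 inside the control range. These ratios were not tested, because the genes were chosen with results of these data known.

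The fold changes of several genes differed in size between the sexes, but no difference passed the test. For Tfrc the log2 fold change was -0.16 in 3 against 3 males and -0.55 in 2 against 2 females. The male response minus the female response was 0.39 for Tfrc, with a 95% confidence interval of -0.03 to 0.81 (limma interaction adjusted p = 0.999). Ireb2 was at -0.05 in males and -0.31 in females, Slc39a8 at 0.0045 and -0.20, and Fth1 at 0.19 and 0.06. In the limma interaction term 0 of the 10 genes were called, as were 0 of 12751 (0%), with none of the 10 at an unadjusted p under 0.05 and 2.45% of all genes there. In females the diets did not overlap for 6 of the 10 genes, among them Tfrc, Slc40a1 and Ftl1, where 31.5% of all tested genes did not overlap with 2 libraries on each side. In males they overlapped for all 10, and 10.2% of tested genes did not overlap. Between males and females of both diets the limma test called none of the 10 and 8 of all tested genes (0.0627%), with none of the 10 at an unadjusted p under 0.05 and 5.8% of all genes there. The largest sex difference among them was that of Tfrc, at 751 TPM in males and 708 TPM in females (log2 difference 0.12, limma adjusted p = 0.894).

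**Figure D3:**
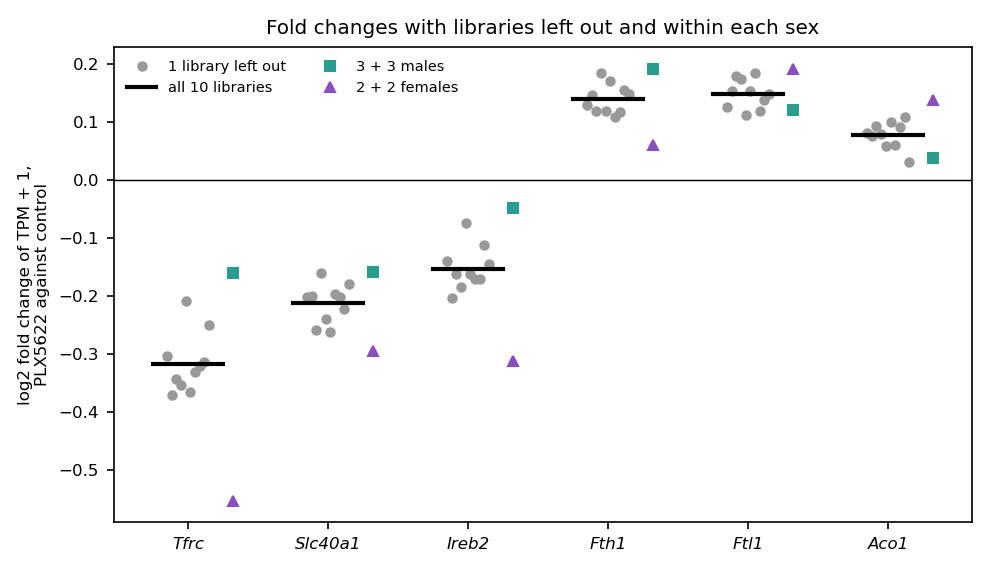
Log2 fold change of TPM + 1 on PLX5622 against control diet (vertical axis) for 6 of the genes, with all 10 libraries (bar), with 1 library left out (grey points) and within males (squares) or females (triangles). Tfrc spans -0.37 to -0.21 with 1 library left out and lies at -0.16 in males and -0.55 in females.

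The libraries differed in other ways that touch these genes. Whole reads recovered from the deposited values ran from 26.4 to 61.5 M (mega, as in megabase) across the 10 libraries, the median being 31.2 M. The summed level of 20 microglial markers was 61.8 to 251.8 TPM in control mice and 47.6 to 58.5 TPM under PLX5622 (two-sided exact permutation p = 0.00794), and Cx3cr1, a defining marker, was listed at 0 in all 5 PLX5622 libraries and in control female 1, and at 2.15 to 6.66 TPM in the other 4 control libraries. In bulk libraries fewer cells of a type and less RNA per cell cannot be told apart. Control female 1, with the lowest microglial sum of the controls, held Tfrc at 709 TPM, the lowest control value, but Slc40a1 at 365 TPM and Fth1 at 869 TPM, the highest control values. Choroid plexus markers summed to 1.28 to 573 TPM in control mice and 1.33 to 846 TPM under PLX5622, highest in PLX5622 female 1, where Tfrc was at 611 TPM and Ftl1 at 3187 TPM. The part of either cell type in the values of the iron genes was not tested. The sums of 10 brain endothelial markers, 22751 to 23765 TPM in control mice and 22408 to 23797 TPM under PLX5622, overlapped. Markers of other cells overlapped too, except those of erythroid cells, at 0.057 to 0.775 TPM and 0.932 to 2.36 TPM. The part of erythroid RNA in these values was not tested, and 4 of 7 erythroid markers, the globin genes, were listed at 0 in all libraries.

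Across the 10 libraries no correlation passed the test in the 4 pairs of members examined. The pooled values mix the difference between diets with the spread between mice, so the r within each diet is given beside them as a description of 5 libraries, without a test. Fth1 and Ftl1, the subunits of 1 particle, had a Pearson r of 0.547 (permutation p = 0.0998, adjusted p = 0.399) and a Spearman rho of 0.285 (permutation p = 0.425, adjusted p = 0.811). Without the 2 libraries farthest from the median of Fth1 the r was 0.561 and the rho was 0.143. Within control mice the r was 0.455 and within PLX5622 mice 0.119. Tfrc and Slc11a2, which act in the same endosome, had an r of -0.0848 (permutation p = 0.821, adjusted p = 0.95) and a rho of -0.0909 (permutation p = 0.811, adjusted p = 0.811), and r was 0.288 without the 2 libraries farthest in Tfrc. Within the diets it was -0.255 (control) and -0.0186 (PLX5622). Slc40a1 and Fth1 had an r of -0.289 (permutation p = 0.417, adjusted p = 0.833) and a rho of -0.285 (permutation p = 0.429, adjusted p = 0.811). Within control mice the r of this pair had the opposite sign, at 0.897, and within PLX5622 mice it was -0.256, so the pooled value does not describe both diets. Slc39a8 and Slc39a14 had an r of -0.0212 (permutation p = 0.95, adjusted p = 0.95) and a rho of -0.0909 (permutation p = 0.811, adjusted p = 0.811). Without the farthest 2 libraries r was -0.484 for Slc40a1 with Fth1 and -0.25 for Slc39a8 with Slc39a14. The rho was then 0.31 for Tfrc with Slc11a2, -0.381 for Slc40a1 with Fth1 and -0.476 for Slc39a8 with Slc39a14. Within the diets the r of Slc39a8 with Slc39a14 was -0.0844 (control) and -0.0242 (PLX5622).

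The tested genes most like a member were ranked by Pearson r of log2(TPM + 1) over the 10 libraries, as a description of their profiles. For Tfrc they were Mtss1 (r = 0.924), Zfp979 (0.920) and Isoc1 (0.915). For Slc40a1 they were Mrpl50 (0.952), Car4 (0.944), a carbonic anhydrase on the surface of capillary endothelium, and Kctd12b (0.933). For Fth1 they were Nelfe (0.952), Mrps10 (0.943) and Ccdc51 (0.914). All share libraries and diet with the member they resemble, and the best of 12751 genes over 10 libraries is high by choice.

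The wider pathways showed no called gene either. Of 114 further genes of iron, heme, iron-sulfur cluster, zinc, copper and manganese handling, 92 were tested. The listed symbol Tf, for transferrin, had no entry in the deposited values, so transferrin was not examined. Limma called 0 of the 92, and 2 (2.17%) had an unadjusted p under 0.05, against 8.31% of all tested genes. The authors' deposited table called none of the listed genes that it held. Voom on recovered reads had 1 of the 92 at an unadjusted p under 0.05. Their median log2 fold change was 0.0018. The 2 were Slc30a6, a zinc exporter of the secretory pathway, at -0.23, and Tmem165, a manganese and calcium transporter of the Golgi, at -0.17, and these were named after their values were seen.

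Iron uptake and release genes other than the members were mostly low or level. Of 19 with values, 10 were tested and none was called in either direction. The median was 0.01, with 5 genes on each side of 0. Mcoln1, a lysosomal cation channel that releases iron, stood at 118 ± 6.65 TPM in control mice and 121 ± 8.87 TPM under PLX5622 (SD, n = 5 each). Cp, the ceruloplasmin ferroxidase that assists ferroportin, stood at 112 ± 11.1 and 114 ± 8.70 TPM. Slc25a28, a mitochondrial iron importer, stood at 53.1 ± 1.92 and 52.9 ± 1.91 TPM.

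Among 7 tested genes of iron storage and regulation 0 were called, with a median of -0.03. Pcbp1, an iron chaperone that loads ferritin, was at 366 ± 19.3 TPM in control mice and 359 ± 5.28 TPM under PLX5622, and Pcbp2, its relative, at 297 ± 12.4 and 299.7 ± 15.7 TPM. Ncoa4, the receptor that sends ferritin to lysosomes, was at 68.4 ± 4.73 and 68.6 ± 5.77 TPM. Of 5 other transcripts known for an iron-responsive element, all tested, 0 were called, and their median was 0.04. Epas1, the hypoxia-inducible factor HIF-2 alpha of endothelium, was at 2140 ± 158 and 2206 ± 211 TPM. Alas2, the heme synthesis enzyme known from red cell precursors, was at 59.1 ± 19.8 TPM in control mice and 71.5 ± 28.4 TPM under PLX5622, with libraries from 34.2 to 116 TPM that overlapped between the diets. The erythroid markers Slc4a1 and Ahsp reached at most 0.523 and 1.11 TPM in any library.

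Heme and iron-sulfur genes were nearly all expressed. Of 18 heme genes 17 were tested, 0 were called, 11 lay above 0 and the median was 0.02. Alas1, the enzyme that starts heme synthesis outside red cells, was at 291 ± 28.0 and 295 ± 19.5 TPM, Flvcr2, a choline transporter of brain endothelium, at 168 ± 9.34 and 168 ± 15.5 TPM, and Slc48a1, which moves heme out of lysosomes, at 71.8 ± 5.65 and 69.0 ± 5.55 TPM. Hmox1, which breaks down heme and was named after its value was seen, was at 20.6 ± 3.10 and 22.6 ± 2.64 TPM. Of 23 iron-sulfur cluster genes, all tested, 0 were called and the median was -0.0070. The most abundant were Hspa9, the mitochondrial chaperone of cluster transfer (145 ± 7.98 and 144 ± 14.1 TPM), Iscu, the scaffold (114 ± 21.2 and 113 ± 8.48 TPM), and Isca1, a late-acting assembly factor (90.2 ± 2.62 and 88.6 ± 13.7 TPM).

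Other zinc, copper and manganese genes gave the same picture of uncalled values. Among 10 tested ZIP importers beside Slc39a8 and Slc39a14, Slc39a10 was the most abundant, at 746 ± 85.0 and 701 ± 73.9 TPM, more than 4 times the level of Slc39a8, and the list had a median of -0.03. Slc39a7, a zinc channel of the endoplasmic reticulum, was at 142 ± 6.38 and 146 ± 10.9 TPM, and Slc39a1, a plasma membrane zinc importer, at 99.6 ± 4.002 and 103 ± 3.69 TPM. Among 6 tested ZnT exporters 5 lay below 0, with a median of -0.08 and none called. Slc30a9 (66.2 ± 3.99 and 62.6 ± 1.82 TPM), Slc30a5 (47.9 ± 3.50 and 45.7 ± 1.62 TPM) and Slc30a4 (32.5 ± 2.99 and 30.8 ± 2.71 TPM) were all far below Slc30a1 in level.

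The metallothioneins, small metal-binding proteins of which zinc induces Mt1 and Mt2 together with Slc30a1, were also not called. Mt1 was at 573 ± 52.6 and 545 ± 79.8 TPM, Mt2 at 290 ± 58.6 and 278 ± 51.4 TPM, and Mt3, the brain form, at 28.6 ± 12.5 and 32.7 ± 13.3 TPM. With their regulator Mtf1 the list of 4 had a median of -0.07. The letters of the metal response element, TGCACNC or TGCGCNC on either strand, occurred 2 times in the 300-base RefSeq promoter window of Slc30a1 (build GRCm38.p6), 3 times in that of Mt1 and 4 times in that of Mt2, and in 25.7% of 32851 windows overall. Of the 10 members 7 had such windows, 10 windows in all, and the share of 25.7% counts windows, not genes. The letters also occurred in 1 window of Tfrc (2 times) and 1 of Slc39a8 (1 time), while the other window of each held none. They occurred 1 time in the window of Aco1 and in no window of Fth1, Ftl1 or Ireb2. Of 10 tested copper and manganese genes 0 were called, with a median of 0.01. Atox1, a copper chaperone, was at 576 ± 46.6 and 617 ± 44.1 TPM, Atp2c1, a Golgi calcium and manganese pump, at 132 ± 6.08 and 124 ± 6.28 TPM, and Cox17, which hands copper to mitochondria, at 121 ± 15.8 and 127 ± 8.78 TPM.

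**Figure D4:**
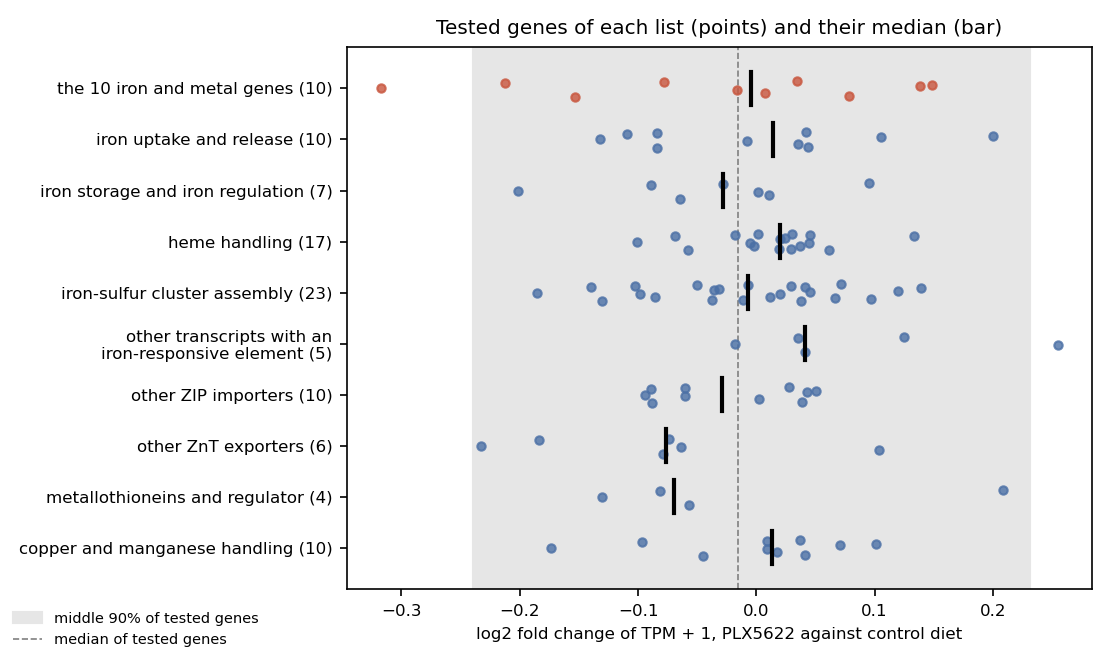
Log2 fold change of TPM + 1 on PLX5622 against control diet (horizontal axis) for every tested gene of each list (points, number in brackets) with the list median (bar), the middle 90% of tested genes (grey) and their median (dashed). The medians of the lists lie between -0.08 and 0.04, and no point is a called gene.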

How the data were processed

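RNA of 10 libraries, 1 per mouse, was made into libraries that do not mark strand, per the labels' protocols, so reads of overlapping genes stay mixed. The titles gave diet, sex and replicate number. The submitters' processing notes name the build mm39, the aligner STAR 2.7.10a, and featureCounts from Subread 2.0.1 for counting. They also name R 4.1.0 with DESeq2 1.32.0 as the submitters' tools. The authors deposited TPM for 26264 genes and a DESeq2 table of 19474 genes, with a model not given in the sources used. That deposited table holds log2 fold changes with standard errors, p-values with adjusted p-values, and a mean count and test statistic, which were treated as scores.

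The main test was limma 3.58.1 (R 4.3.3) on log2(TPM + 1), a scale that understates changes of low genes, with trended variance, sex and diet as terms. It took in genes that reached a TPM of 1 in 5 or more of the 10 libraries. It was two-sided at an adjusted p of 0.05. The limma p-values set a difference against the spread between these mice, with the variance of each gene drawn toward the trend over all genes. Whole reads were recovered from TPM with the authors' mean counts, by a factor per gene and per library, and 100.0% came out whole within 0.05 reads. These gave depth and the voom alternative. Correlations used 100000 permutations. Tools were Python 3.11.15, numpy 2.4.6, pandas 2.3.3 and scipy 1.17.1.

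The 10 genes, the lists and the tests were chosen with earlier results of these data known, so no p was adjusted over a list and no list was tested as a set. Named genes are all members and, from each list, called genes and the 3 most abundant, of which 1 is not reported here. The alternatives for the diet comparison numbered 24. GENCODE M21 and RefSeq belong to another build than the files, so their coordinates are for the printed elements alone.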

Additional observations from a re-analysis of the deposited data

How the results depend on the processing

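None of the 10 iron and metal genes passed the threshold in any of the 24 alternatives for the diet comparison, nor in the alternatives for sex and for the interaction, and the smallest adjusted p for a member was 0.192, for Tfrc in the authors' deposited DESeq2 table. Of 239 member values, 226 kept their sign and 13 changed it, in 4 genes close to 0. Tfrc, Slc40a1, Ireb2, Fth1, Ftl1 and Aco1 kept their sign in every alternative. The count of all called genes, 17, was 7 with no filter, 7 with no trend, 8 in males only, 0 in females only (502 at an unadjusted limma p under 0.05), 116 in the authors' DESeq2 table, and 5 to 16 with 1 library left out, lowest without control male 2. The labels tie same-numbered mice by number alone. Deviations from the group means correlated at 0.03 to 0.19 between same-numbered mice of the 2 diets. Between mice of other numbers they correlated at -0.18 to 0.08. Deviations within a group sum to 0, and those of 2 females mirror each other, so the female values are all 0.16 or -0.16. The 2 ranges are therefore not independent, and whether same-numbered mice share a factor cannot be read from them. The numbers were not taken as pairs in the main fit. The fit with the replicate block called 11 genes and none of the 10.

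Signs changed as follows, all on uncalled log2 fold changes, and the cause was not tested. In males only, Slc11a2 was at -0.0032, Slc39a8 at 0.0045, Slc25a28 at 0.010, Pcbp2 at -0.026, Slc48a1 at 0.030, Hspa9 at 0.045, Epas1 at -0.0052 and Mt2 at 0.051. In females only, Slc39a14 was at 0.15, Ncoa4 at -0.0024, Flvcr2 at 0.040 and Iscu at -0.19. With quantile normalization Slc39a14 was at 0.034 and Slc25a28 at 0.0074. In the authors' deposited table Slc39a14 was at 0.0007, Slc25a28 at 0.0115, Flvcr2 at 0.016 and Hspa9 at 0.012. With median-of-ratios scaling Slc25a28 was at 0.0115, Flvcr2 at 0.014 and Hspa9 at 0.0080. With array weights Slc25a28 was at 0.014, Flvcr2 at 0.0075 and Hspa9 at 0.011, and with voom on recovered reads Slc25a28 was at 0.014, Flvcr2 at 0.014 and Hspa9 at 0.0070. With 1 library left out the ranges were -0.032 to 0.054 for Slc11a2, -0.080 to 0.087 for Slc39a14, -0.033 to 0.11 for Slc30a1, -0.0051 to 0.092 for Cp, -0.029 to 0.0087 for Slc25a28, -0.018 to 0.030 for Pcbp2, -0.028 to 0.033 for Ncoa4, -0.024 to 0.064 for Alas1, -0.0375 to 0.055 for Flvcr2, -0.0505 to 0.038 for Hspa9, -0.074 to 0.084 for Iscu, -0.11 to 0.026 for Isca1, -0.012 to 0.080 for Epas1, -0.13 to 0.033 for Mt2, -0.0589 to 0.46 for Mt3 and -0.0097 to 0.13 for Cox17.

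Slc39a14, at 32 to 125 reads per library, had no value in the fit limited to a mean TPM of at least 5. With 5 libraries a diet, precision is limited to the width of the intervals given for each gene.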
